A study of Rattus norvegicus with 17 samples.

Results

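Semaphorins are secreted or membrane-bound guidance cues, neuropilins are cell-surface proteins that bind the secreted class 3 semaphorins, and plexins are the receptors that carry the signal into the cell. The 10 genes described here are the ligands Sema3a, Sema3b, Sema3c, Sema3d, Sema3f and Sema6d, the neuropilins Nrp1 and Nrp2, and the plexins Plxna1 and Plxnd1. Every probe set that the platform annotation assigns to 1 of these genes alone was taken, which gave 15 of the 31042 probe sets on the array and 10 of the 14217 genes that have such a probe set. Of these, 12 probe sets, covering all 10 genes, lay above the filter on low values and were tested.

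The tissue was the gubernaculum, the fetal ligament that anchors the testis near the abdominal wall, dissected on gestational day 17 from male fetuses of Long Evans rats. Each replicate held 2 gubernaculum bulbs, cultured together for 24 h in medium free of added hormone and then for another 24 h with or without Insl3 (insulin-like 3), the peptide hormone that Leydig cells of the fetal testis secrete. The groups were cultures without Insl3 (control, 6 arrays), with 10 nM Insl3 (3 arrays) and with 100 nM Insl3 (6 arrays), all of the same strain, sex and age. The submitters set aside 2 further arrays at 10 nM, which are given here as values only. Each replicate was a whole tissue of several cell types in culture, so fewer cells of a type and less RNA per cell cannot be told apart in any result below. Of the mesenchymal markers, Hoxa10, Hoxa11, Twist1, Twist2, Pdgfra, Pdgfrb, Col1a1, Col3a1, Vim and Dcn lay above the filter, whereas Esr1 and Tcf21 lay below it in all 15 arrays. The Insl3 receptor Rxfp2 was not analysed here.

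Class 3 semaphorins generally act through a complex in which a neuropilin binds the ligand and an A-type plexin signals, and their best-known effect is to collapse the cytoskeleton at the leading edge of growing axons and migrating cells. Nrp1 is classically the receptor for Sema3a and Nrp2 for Sema3f, while both neuropilins also bind members of the vascular endothelial growth factor family. Sema6d is a transmembrane ligand of Plxna1, and Plxnd1 is a plexin best known from endothelial cells. In developing mesenchyme, vessels and nerves, these cues set where axons, vessels and migrating cells may enter.

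With 100 nM Insl3, transcripts of Sema3d, Nrp2 and Sema6d were lower than in control cultures and those of Sema3f were higher. With 10 nM Insl3, Sema3d and Nrp2 were again lower, Sema3f was higher by 1 of its 2 probe sets, and Sema3a was lower. Sema3b, Sema3c, Nrp1, Plxna1 and Plxnd1 did not pass the test at either dose. A difference passed when the adjusted p of limma, fitted across all 18938 tested probe sets and corrected by Benjamini-Hochberg, was below 0.05. All values are log2 expression values, differences between groups are differences of these log2 values, and the signals of different probe sets are not read as relative amounts of their transcripts.

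At 100 nM against control, 5 of the 12 probe sets passed, 2 higher and 3 lower, and 2 had groups that did not overlap. Of all tested probe sets, 10.9% passed in either direction, 6.51% higher and 4.39% lower, and 4.96% had groups that did not overlap. At 10 nM against control, 4 of 12 passed, 1 higher and 3 lower, and 4 did not overlap. Here 10.6% of all tested probe sets passed, 4.88% higher and 5.70% lower, and 17.0% did not overlap. Between 100 nM and 10 nM, 1 of 12 passed and was higher at 100 nM, and 2 did not overlap, where 1.43% of all tested probe sets passed, 1.24% higher, and 7.85% did not overlap. The median size of the log2 difference, regardless of sign, was 0.30 over the 12 probe sets at 100 nM and 0.14 over all tested probe sets. At 10 nM the same medians were 0.39 and 0.16. The members were chosen with earlier results of these data known, so these counts and medians do not show that the family differed more than other genes. Both comparisons with control use the same 6 control arrays, so they are not independent of each other.

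**Figure D1:**
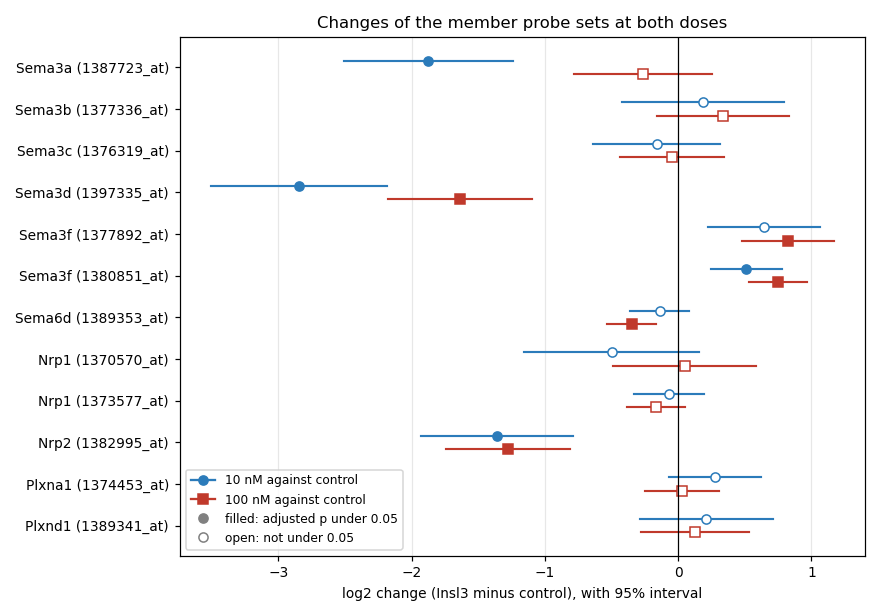
Log2 difference of each tested semaphorin, neuropilin and plexin probe set (horizontal axis) with its 95% interval, for 10 nM and 100 nM against control. Filled points have an adjusted p below 0.05. Sema3d shows the most negative differences, -2.84 at 10 nM and -1.64 at 100 nM against control, and Sema3a shows -1.88 at 10 nM and -0.27 at 100 nM.

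The promoters of Sema3d and Nrp2, the members that were lower at both doses, are shown together with that of Nrp1, the relative of Nrp2 that did not pass the test. Each is the 250 bases before the annotated start of the gene in the RefSeq promoter table for GRCr8, written 5′ to 3′ on the strand of the gene, which is the minus strand at chr4:23460972-23461221 for Sema3d and the plus strand at chr9:71617004-71617253 for Nrp2 and at chr19:73256307-73256556 for Nrp1. The start used for Nrp2 lies inside the annotated extent of the gene. The receptor of Insl3 is known to raise cyclic AMP, and the half-site of the cyclic AMP response element, TGACG on either strand, was searched. Capitals mark that half-site, read as CGTCA on the printed strand.
Sema3d: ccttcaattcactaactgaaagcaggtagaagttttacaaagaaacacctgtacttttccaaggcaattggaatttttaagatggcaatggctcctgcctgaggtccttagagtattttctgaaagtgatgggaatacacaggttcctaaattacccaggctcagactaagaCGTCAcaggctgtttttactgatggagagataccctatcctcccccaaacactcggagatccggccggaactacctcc
Nrp2: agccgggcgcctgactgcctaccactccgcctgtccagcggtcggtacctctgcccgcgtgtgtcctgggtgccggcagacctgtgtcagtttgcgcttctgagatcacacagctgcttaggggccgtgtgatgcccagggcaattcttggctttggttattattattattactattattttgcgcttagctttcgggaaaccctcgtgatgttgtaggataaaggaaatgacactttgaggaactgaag
Nrp1: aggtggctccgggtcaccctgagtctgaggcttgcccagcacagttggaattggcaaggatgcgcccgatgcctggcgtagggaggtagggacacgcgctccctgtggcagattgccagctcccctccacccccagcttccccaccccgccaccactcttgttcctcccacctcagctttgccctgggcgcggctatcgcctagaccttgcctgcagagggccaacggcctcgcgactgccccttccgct

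The promoter table held 6 of the 10 genes, and the half-site was present in 1 of these 6, Sema3d, where its first base lay at position -78 from the start. Across all 33469 promoters of the table, 18.2% held the half-site on either strand and 1.59% held the full palindrome TGACGTCA, which overlaps it and which none of the 3 printed windows holds. A match of letters is a description of the window and not a binding site. In the GRCr8 gene order, Sema3a and Sema3d are direct neighbours on chromosome 4, with 0 protein-coding genes between them, and Sema3c lies on the same chromosome. Sema3b and Sema3f lie on chromosome 8 with 3 protein-coding genes between them, Gnai2, Slc38a3 and Gnat1.

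Sema3d, a secreted class 3 semaphorin known from the guidance of axons, neural crest and endothelial cells, had the largest difference of the 10 genes at each dose against control. Its lowest, median and highest values were 8.07, 8.39 and 8.98 in the 6 control arrays, the 3 arrays at 10 nM had 5.72, 5.23 and 5.78, and the lowest, median and highest at 100 nM were 6.28, 6.47 and 7.85. Every Insl3 array of either dose lay below every control array, and all 3 arrays at 10 nM lay below all 6 at 100 nM.

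Sema3d averaged 6.78 ± 0.62 at 100 nM (SD, n = 6) and 8.42 ± 0.32 in control cultures (SD, n = 6), a log2 difference of -1.64 ± 0.25 (SE, 95% interval -2.18 to -1.10, limma adjusted p = 0.0011) or 3.12-fold lower. At 10 nM it averaged 5.57 ± 0.30 (SD, n = 3), and the difference from control was -2.84 ± 0.31 (SE, limma adjusted p = 0.000124), 7.18-fold lower. The difference between the doses, 1.20 higher at 100 nM than at 10 nM (95% interval 0.54 to 1.87), did not pass the test, with a limma adjusted p of 0.0705. It passed with array quality weights (limma adjusted p = 0.0132), without 100 nM replicate 5 (limma adjusted p = 0.0385) and with the erythroid (1.78, limma adjusted p = 0.0391) or endothelial mean (limma adjusted p = 0.0465) as a covariate. The 2 set-aside arrays at 10 nM had 5.27 and 6.69, both below every control array. They also lay below every control for Sema3c (10.24 and 9.90), Nrp1 1373577_at (9.97 and 10.18) and Plxna1 (8.38 and 8.13), which did not pass. Their low values are thus not particular to the genes that passed.

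The Sema3d difference at 100 nM did not keep its call beside 2 marker means that themselves differed between the groups. With the mean of the erythroid markers as a covariate it was -0.95 (limma adjusted p = 0.139), and with that of the endothelial markers, an alternative added after seeing the data, it was -0.98 (limma adjusted p = 0.138).

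Sema3f, the ligand classically paired with Nrp2, was measured by 2 probe sets, and both were higher at 100 nM. The first, 1380851_at, had a lowest, median and highest of 4.89, 5.35 and 5.53 in control cultures, values of 5.82, 5.85 and 5.80 at 10 nM, and a lowest, median and highest of 5.82, 6.08 and 6.21 at 100 nM. All of these arrays of either dose lay above all control arrays, while the doses overlapped each other. The 2 set-aside arrays at 10 nM had 5.63 and 5.34, the second within the range of the controls.

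The 1380851_at signal of Sema3f averaged 6.06 ± 0.15 at 100 nM and 5.31 ± 0.23 in control cultures (SD, n = 6 each), a difference of 0.75 (95% interval 0.53 to 0.96, limma adjusted p = 0.000403) or 1.68-fold. At 10 nM it was higher than control by 0.51 (95% interval 0.25 to 0.78, limma adjusted p = 0.016), a call that was lost without any 1 of the 3 arrays at 10 nM, at differences of 0.50 to 0.52 and adjusted p up to 0.0623. It was also lost with all 17 arrays (0.37, limma adjusted p = 0.0591) and with the endothelial mean as a covariate (0.44, limma adjusted p = 0.0907). The difference between 100 nM and 10 nM was 0.24 (95% interval -0.03 to 0.50, limma adjusted p = 0.475).

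The second Sema3f probe set, 1377892_at, had a lowest, median and highest of 3.41, 3.57 and 4.00 in control cultures, values of 4.17, 4.65 and 3.94 at 10 nM, and 3.92, 4.50 and 4.89 at 100 nM. At each dose 1 array lay within the range of the controls, whose highest value came from control replicate 6. The difference was 0.82 at 100 nM (limma adjusted p = 0.00547) and 0.64 at 10 nM (limma adjusted p = 0.0514), so the 2 probe sets had the same sign at both doses and only the first passed at both. With the erythroid mean as a covariate, 1377892_at lost its call at 100 nM (0.90, limma adjusted p = 0.0826) and 1380851_at kept it, alone among the 5 calls.

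Sema3a, the prototype repellent of axons and a ligand of Nrp1, differed from control at 10 nM. Its lowest, median and highest were 4.08, 4.99 and 5.31 in control cultures, the 3 arrays at 10 nM had 3.17, 3.37 and 2.44, and the lowest, median and highest at 100 nM were 4.13, 4.61 and 5.33. The arrays at 10 nM lay below all others, and the ranges at 100 nM and in control cultures were nearly the same. The 2 set-aside arrays at 10 nM, at 2.43 and 3.39, also lay below every control array.

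Sema3a averaged 2.99 ± 0.49 at 10 nM (SD, n = 3) and 4.87 ± 0.46 in control cultures (SD, n = 6), a difference of -1.88 ± 0.30 (SE, 95% interval -2.51 to -1.24, limma adjusted p = 0.0013) or 3.67-fold lower. It was 1.61 higher at 100 nM than at 10 nM (95% interval 0.98 to 2.24, limma adjusted p = 0.0233), the single call between the doses among the 12 probe sets. At 100 nM the difference of Sema3a from control was -0.27 (95% interval -0.78 to 0.25, limma adjusted p = 0.526), an interval that does not reach the difference measured at 10 nM. The call between the doses was lost without 10 nM replicate 1, 10 nM replicate 3 or 100 nM replicate 2, with adjusted p up to 0.191 and differences from 1.33 to 1.70. It was also lost without the filter on low values (limma adjusted p = 0.0773), with only the 2 groups compared (limma adjusted p = 0.0923) and beside the erythroid covariate (1.55, limma adjusted p = 0.0773). The values at 10 nM lay near the floor of 2.11 on this scale, where differences are compressed.

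Sema3c, a ligand of both neuropilins that also attracts some cells, and Sema3b, another secreted ligand of the neuropilins, did not pass the test in any comparison. Sema3c ranged from 10.49 to 11.28 in control cultures, from 10.80 to 10.97 at 10 nM and from 10.59 to 11.67 at 100 nM, with full overlap. Its difference at 100 nM was -0.04 with a 95% interval of -0.43 to 0.34, which leaves room for changes of up to that size. Sema3b ranged from 5.38 to 5.76 in control cultures, from 5.55 to 6.03 at 10 nM and from 5.30 to 6.75 at 100 nM, where replicates 1 and 5 stood above the rest at 6.75 and 6.62. Its difference at 100 nM was 0.34 (95% interval -0.16 to 0.83, limma adjusted p = 0.387). In 5 of the 15 arrays Sema3b had the same value, 5.76, to within 0.001.

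**Figure D2:**
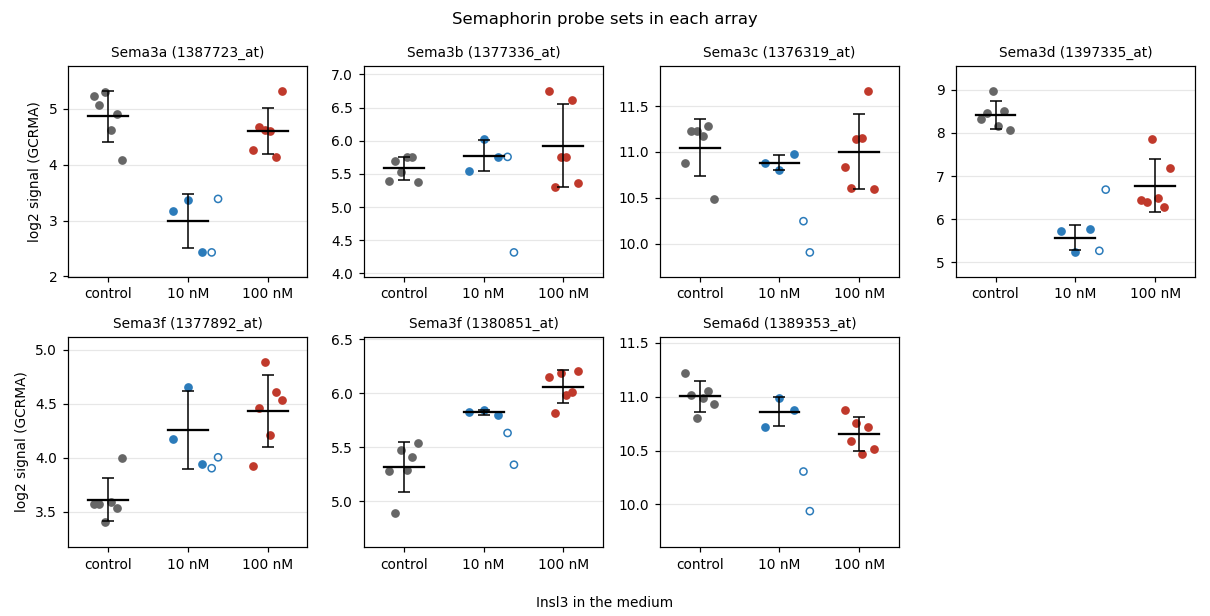
Log2 expression value (vertical axis) of the semaphorin probe sets in each array of the control, 10 nM and 100 nM groups; filled points are the arrays used, open points the 2 set-aside arrays, and bars the mean ± SD. Among the filled points, all Insl3 arrays lie below all control arrays for Sema3d and above them for Sema3f 1380851_at, for which the set-aside array at 5.34 lies within the control range, and Sema3a has its lowest values at 10 nM.

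Sema6d, a transmembrane semaphorin, was lower at 100 nM by a small amount. Its lowest, median and highest were 10.80, 11.00 and 11.22 in control cultures, the arrays at 10 nM had 10.72, 10.99 and 10.88, and the lowest, median and highest at 100 nM were 10.47, 10.65 and 10.88. The groups overlapped, and each of the other pairs of groups overlapped too. Sema6d averaged 10.65 ± 0.16 at 100 nM and 11.00 ± 0.14 in control cultures (SD, n = 6 each), a difference of -0.35 (95% interval -0.53 to -0.17, limma adjusted p = 0.0182) or 1.27-fold lower. At 10 nM the difference was -0.14 (95% interval -0.36 to 0.08, limma adjusted p = 0.454). With all 17 arrays in the fit the call at 100 nM was lost at the same difference (limma adjusted p = 0.206). It was also lost with a marker mean as a covariate, though the difference itself was larger, at -0.50 with the erythroid (limma adjusted p = 0.0528) and -0.47 with the endothelial mean (limma adjusted p = 0.0708).

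Nrp2, the neuropilin that classically binds Sema3f and, among growth factors, the lymphatic ligand Vegfc, was lower at both doses. Its lowest, median and highest were 9.71, 10.37 and 10.61 in control cultures, the arrays at 10 nM had 8.89, 9.20 and 8.74, and the lowest, median and highest at 100 nM were 8.53, 8.82 and 9.75. All arrays at 10 nM lay below all controls, and at 100 nM only replicate 3, at 9.75, reached above the lowest control, which was replicate 6 at 9.71.

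Nrp2 averaged 9.02 ± 0.52 at 100 nM and 10.30 ± 0.31 in control cultures (SD, n = 6 each), a difference of -1.28 ± 0.22 (SE, 95% interval -1.74 to -0.81, limma adjusted p = 0.00229) or 2.43-fold lower. At 10 nM it averaged 8.94 ± 0.24 (SD, n = 3), lower than control by 2.56-fold (log2 difference -1.36, 95% interval -1.93 to -0.79, limma adjusted p = 0.00479). The doses differed by 0.08 (95% interval -0.49 to 0.65, limma adjusted p = 0.957), an interval that does not show them to be alike. The set-aside arrays had 8.48 and 8.01, below every control array.

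As for Sema3d, the Nrp2 call at 100 nM was lost with the erythroid mean (-0.81, limma adjusted p = 0.184) or the endothelial mean (-0.84, limma adjusted p = 0.166) as a covariate, and with the endothelial mean the call at 10 nM was lost as well (-1.05, limma adjusted p = 0.0513). The other Nrp2 probe set, 1369824_at, lay between 2.11 and 2.26 in every array, below the filter, and gives no second reading of the gene.

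Nrp1, the neuropilin that binds Sema3a and acts with Kdr in vessels, did not pass the test by either of its 2 probe sets. By 1373577_at its lowest, median and highest were 10.57, 11.00 and 11.12 in control cultures, values at 10 nM were 10.84, 10.93 and 10.86, and the lowest, median and highest at 100 nM were 10.44, 10.82 and 10.93. By 1370570_at they were 9.85, 11.20 and 11.42 in control cultures, 10.52, 10.66 and 10.33 at 10 nM, and 10.29, 11.14 and 11.43 at 100 nM. The ranges overlapped at both doses by both probe sets.

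The Nrp1 difference at 100 nM was -0.17 by 1373577_at (95% interval -0.38 to 0.05) and 0.05 by 1370570_at (95% interval -0.49 to 0.59), so neither interval reaches the fall measured for Nrp2. At 10 nM the differences were -0.07 (limma adjusted p = 0.779) and -0.50 (limma adjusted p = 0.353). The second of these passed without control replicate 6, the lowest control of 1370570_at, at -0.73 with an adjusted p of 0.0323, and with array quality weights, at -0.68 with an adjusted p of 0.02.

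The balance of the neuropilins within an array, the log2 value of Nrp2 minus that of Nrp1, was set out after Nrp2 had passed the test and Nrp1 had not, and it is given as a description with no test. Its absolute value has no meaning, since it joins 2 probe sets, and only its shift between groups is read. With 1373577_at for Nrp1 it averaged -0.65 ± 0.21 in control cultures (SD, n = 6), -1.93 ± 0.20 at 10 nM (SD, n = 3) and -1.76 ± 0.47 at 100 nM (SD, n = 6). With 1370570_at it averaged -0.70 ± 0.34 in control cultures, -1.56 ± 0.09 at 10 nM and -2.03 ± 0.57 at 100 nM. Among the arrays used, by either probe set of Nrp1 neither dose overlapped the controls, and the doses overlapped each other. The 2 set-aside arrays at 10 nM had -1.49 and -2.17 with 1373577_at, and -0.79 and -2.25 with 1370570_at. Of these, -0.79 lay within the control range of -1.14 to -0.14.

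Plxna1, an A-type plexin that signals for the neuropilins and for Sema6d, ranged from 8.48 to 9.31 in control cultures, from 9.01 to 9.38 at 10 nM and from 8.70 to 9.10 at 100 nM. Its groups overlapped in every comparison, with differences of 0.03 at 100 nM (95% interval -0.25 to 0.31) and 0.28 at 10 nM (95% interval -0.07 to 0.62). The 2 other Plxna1 probe sets lay between 2.11 and 2.26 in all arrays, below the filter. Plxnd1 ranged from 5.44 to 5.91 in control cultures, from 5.44 to 6.33 at 10 nM and from 5.35 to 6.36 at 100 nM. Its differences were 0.13 at 100 nM (95% interval -0.28 to 0.53) and 0.21 at 10 nM (95% interval -0.28 to 0.71), neither past the test.

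**Figure D3:**
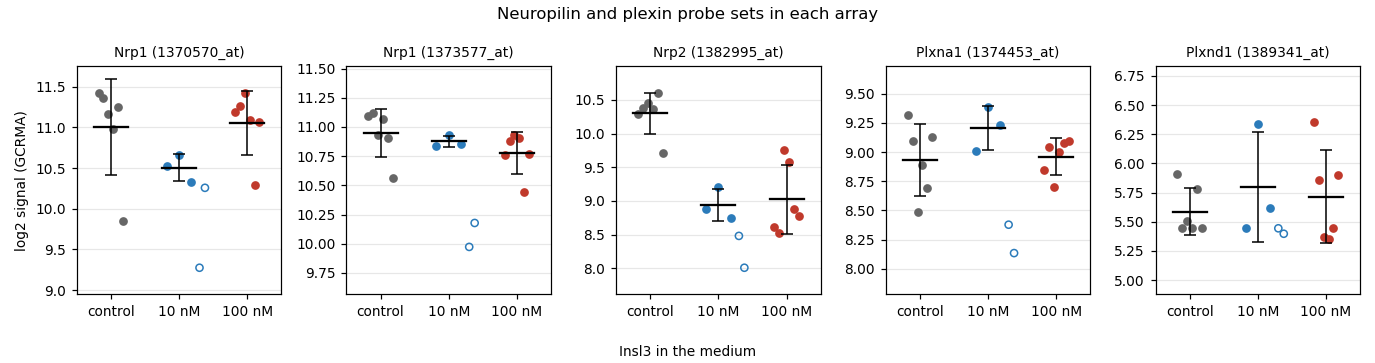
Log2 expression value (vertical axis) of the neuropilin and plexin probe sets above the filter in each array of the control, 10 nM and 100 nM groups; filled points are the arrays used, open points the 2 set-aside arrays, and bars the mean ± SD. Nrp2 averages 8.94 at 10 nM and 9.02 at 100 nM, below its control mean of 10.30. At 100 nM only replicate 3 of Nrp2, at 9.75, reaches above the lowest control at 9.71. Both Nrp1 probe sets, Plxna1 and Plxnd1 overlap between groups.

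The order of the group means differed between genes. Sema3d and Sema3a were lowest at 10 nM, with 100 nM between 10 nM and control, and of the neighbouring steps only that of Sema3a between 10 nM and 100 nM and that of Sema3d between 100 nM and control passed the test. Nrp2 had both doses below control and next to each other. Both Sema3f probe sets and Sema6d had means further from control at 100 nM than at 10 nM, above it for Sema3f and below it for Sema6d, with no passing difference between the doses.

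Of 21 other semaphorins and plexins on a list made for comparison, 17 had a probe set and 15 were tested by their brightest one. At 100 nM 2 were higher, 1 was lower and 12 did not pass, where 10.9% of all tested probe sets passed. At 10 nM 3 were higher, 2 were lower and 10 did not pass, where 10.6% of all tested probe sets passed. Between the doses limma called 0 of the 15, and 2 had an unadjusted p below 0.05. The median difference of the list was -0.02 at 100 nM, against -0.000266 over all tested probe sets.

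Sema3g, a secreted class 3 semaphorin known from arterial endothelium and a ligand of Nrp2, ranged from 5.46 to 6.30 in control cultures, from 6.84 to 7.48 at 10 nM and from 6.51 to 7.70 at 100 nM. Every Insl3 array lay above every control array. The differences were 1.44 at 100 nM (95% interval 1.00 to 1.87, limma adjusted p = 0.000558) and 1.23 at 10 nM (limma adjusted p = 0.0057). Sema4a, a transmembrane semaphorin known from immune cells, was higher by 0.38 at 100 nM (limma adjusted p = 0.0442) and by 0.48 at 10 nM (limma adjusted p = 0.0411). Sema3f, by 1 probe set, and Sema3g were thus higher and Sema3d was lower at both doses.

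Plxna2, an A-type plexin that partners neuropilins, was lower at 100 nM by all 3 of its tested probe sets, with differences of -0.43, -0.58 and -0.65 (limma adjusted p = 0.00849, 0.0111 and 0.0243). At 10 nM 2 of the 3 passed, at -0.63 and -1.16 (limma adjusted p = 0.0184 and 0.00261), and 1390274_at did not (-0.24, limma adjusted p = 0.202). Plxna3, another A-type plexin, was higher at 10 nM by its brightest probe set (0.47, limma adjusted p = 0.0403), which had 0.34 at 100 nM (limma adjusted p = 0.0644). Its other tested probe set, 1377077_at, had -0.01 at 10 nM (limma adjusted p = 0.99) and 0.11 at 100 nM (limma adjusted p = 0.505). Sema6a, a transmembrane relative of Sema6d, was lower at 10 nM by its brightest probe set (-1.09, limma adjusted p = 0.00679), while its 2 other tested probe sets had differences of -0.01 and 0.35 and did not pass.

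**Figure D4:**
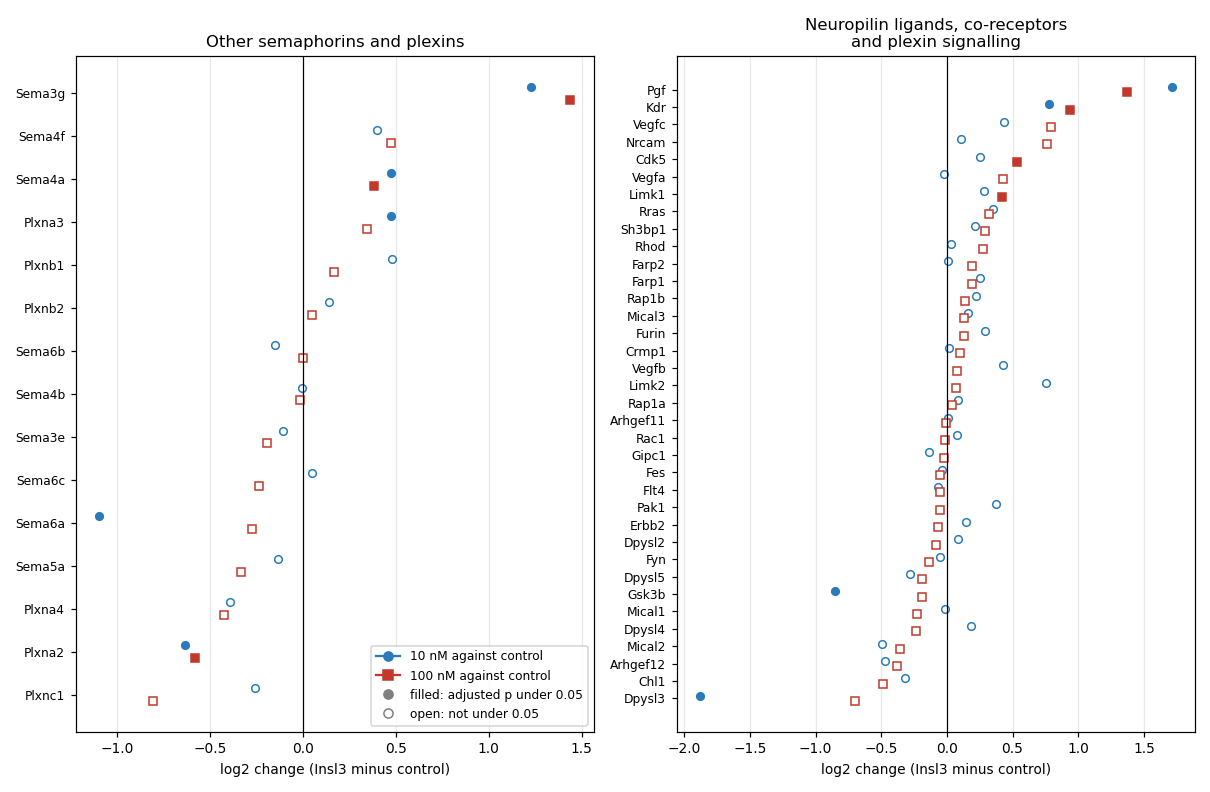
Log2 difference from control (horizontal axis) at 10 nM and 100 nM, with 1 representative probe set, the brightest, for each gene. Shown are the tested genes of the list of other semaphorins and plexins and of the list of neuropilin ligands, co-receptors and plexin signalling proteins. At 100 nM Sema3g (1.44) and Pgf (1.37) have the highest differences of their lists. At 10 nM Sema6a (-1.09) and Dpysl3 (-1.88) have the lowest.

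Of 43 listed neuropilin ligands, co-receptors and plexin signalling proteins, 42 had a probe set and 36 were tested. At 100 nM 4 of 36 were higher and limma called 0 lower, with 2 lower at an unadjusted p below 0.05. That share of calls is close to the 10.9% over all tested probe sets, as are the 4 calls of 36 at 10 nM to the 10.6% there. The 4 were Kdr, the endothelial receptor for Vegfa that works with Nrp1, Pgf, the placental growth factor, some forms of which bind neuropilins, and the kinases Cdk5 and Limk1, which act in the response to semaphorins. Kdr was higher by 0.94 at 100 nM (limma adjusted p = 0.000939) and by 0.78 at 10 nM (limma adjusted p = 0.00984). Pgf was higher by 1.37 at 100 nM (limma adjusted p = 0.00578) and by 1.71 at 10 nM (limma adjusted p = 0.0044). Cdk5 and Limk1 were higher by 0.53 and 0.42 at 100 nM (limma adjusted p = 0.0143 and 0.0418).

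At 10 nM the 2 higher genes of that list were Kdr and Pgf and the 2 lower were Gsk3b, a kinase of the Sema3a response, at -0.85 (limma adjusted p = 0.00422), and Dpysl3, a member of the collapsin response mediator family, at -1.88 (limma adjusted p = 0.021). The other tested Dpysl3 probe set, 1391010_at, had -0.20 at 10 nM and did not pass (limma adjusted p = 0.186). Between the doses limma called 0 of the 36, and 4 had an unadjusted p below 0.05. Vegfa, the growth factor that binds Kdr and Nrp1, had differences of 0.43 at 100 nM (limma adjusted p = 0.319) and -0.02 at 10 nM (limma adjusted p = 0.984). Flt1, the other main receptor for Vegfa and Pgf, lay below the filter in all 15 arrays.

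The likeness of other genes to each member called at 100 nM was measured as the root mean square difference of log2 values, centred on the control mean, over the 15 arrays and 10664 genes. The closest to Sema3d, whose own root mean square was 1.69, were Tmem26 at 0.58, Bod1l1 at 0.62 and Csrnp3 at 0.70. The closest to Nrp2 (own value 1.07) were Angptl4 at 0.34, Bend5 at 0.34 and Gdf10 at 0.41. The closest to Sema3f (own value 0.55) were Fkbp11 at 0.15, Ramp2 at 0.17 and Il11ra1 at 0.18, and the closest to Sema6d (own value 0.26) were Tcf7l2 at 0.11, Galk2 at 0.12 and Acadl at 0.12. Tmem26 had -2.60 at 10 nM and -1.14 at 100 nM, where it did not pass (limma adjusted p = 0.08). Angptl4 had -1.43 at 100 nM and -1.17 at 10 nM. These genes were picked by their likeness over the same arrays, so their like differences follow from that choice.

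Some markers of other cell types differed from control beside these genes, and their part in the results was not tested beyond the covariate fits above. Of all tested probe sets, 10.9% passed at 100 nM and 10.6% at 10 nM. Of 10 tested endothelial markers 3, Cldn5, Kdr and Ramp2, were higher at each dose, and the summed level of the 12 listed genes on the array, on the log2 scale, was 11.70 to 12.24 in control cultures, 12.52 to 13.00 at 10 nM and 13.01 to 13.54 at 100 nM. Pecam1 did not pass (0.01 at 100 nM), and Tek and Flt1 lay below the filter in all arrays. Of 7 tested erythroid markers 5 were lower at 100 nM, with sums over 8 genes of 16.46 to 16.85 in control cultures, 16.40 to 16.73 at 10 nM and 15.38 to 16.65 at 100 nM. Of 10 tested macrophage and leukocyte markers 4 were lower at 100 nM. Of 10 tested mesenchymal markers Twist2 (2.83, limma adjusted p = 6.93e-05) and Hoxa11 (0.32, limma adjusted p = 0.0244) were higher and Dcn (-0.19, limma adjusted p = 0.0423) was lower at 100 nM, and Dcn was lower at 10 nM too (-0.24, limma adjusted p = 0.0343). Of 11 tested skeletal muscle markers 1 was lower at 100 nM, as was 1 of 2 tested Schwann cell markers. Of 6 tested mesothelial and epithelial markers limma called 0 at either dose, and 0 had an unadjusted p below 0.05. Of 8 tested neuronal markers only Uchl1 was higher at 100 nM, and Tubb3, Elavl3 and Syt1 lay below the filter. At 10 nM limma called 0 of the erythroid, macrophage and leukocyte, skeletal muscle, Schwann cell and neuronal markers. There, 1 macrophage and leukocyte, 1 skeletal muscle and 1 Schwann cell marker were lower at an unadjusted limma p below 0.05. The 3′ minus 5′ signal of GAPDH, a measure of RNA integrity, had medians of 0.11 in control cultures, 0.09 at 10 nM and 0.07 at 100 nM. That of beta-actin ran the other way, with medians of 0.88 in control cultures, 0.95 at 10 nM and 1.06 at 100 nM, and its range was 0.37 to 1.08 in control cultures, 0.91 to 1.06 at 10 nM and 0.87 to 1.35 at 100 nM.

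Among the replicates, the first principal component of deviations from the group means held 27.3% of the variance and set replicates 1, 2 and 6 apart from 3, 4 and 5 in the control and 100 nM groups. At 100 nM the Sema3d difference was -1.61 within replicates 1, 2 and 6 and -1.67 within 3, 4 and 5, and that of Nrp2 was -1.49 and -1.07. The differences of Sema3f 1380851_at were 0.82 and 0.67, those of 1377892_at 0.59 and 1.06, and those of Sema6d -0.40 and -0.30. All kept their sign in both sets. The sets are parts of the same arrays that gave the calls, so the shared sign is no separate support. In each set 2 of the 5 passed the test, Sema3d and Nrp2 in the first and both Sema3f probe sets in the second. Of all 18938 tested probe sets, 200 passed in the first set and 1691 in the second, so the 2 counts are not alike.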

How the data were processed

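The authors deposited 1 log2 value for each probe set and Affymetrix array, computed with GCRMA per the submitters' processing notes. Its version and the base of the logarithm are not given in the sources used here; base 2 is what GCRMA writes, and the values run from 2.11 to 16.9. GCRMA corrects background by probe sequence, normalizes arrays to each other and summarises probes, and 34.1% to 35.7% of the probe sets of an array lay within 0.01 of the shared floor, where differences are compressed. Per the labels' protocols, biotin-labelled cRNA was made from 150 ng of total RNA. The labels give an RNA integrity number of 10, and none for 10 nM replicates 1 and 2. The cRNA yield was 50.3 to 102.69 µg in control cultures, 48.6 to 64.16 µg at 10 nM and 59.02 to 77.89 µg at 100 nM, and 25.66 and 33.68 µg for the set-aside arrays. Correlations between arrays ran from 0.978 to 0.996. The number of arrays limits the precision. The labels call the replicates biological, so a p-value reflects how far separate cultures of 2 bulbs each differed.

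Groups came from the labels. After leaving out 57 manufacturer's controls, probe sets above the 40th percentile of all values (2.28) in at least 3 arrays were kept, 18938 in all. limma 3.58.1 in R 4.3.3 fitted the 3 groups of 15 arrays together (lmFit, eBayes, Benjamini-Hochberg per comparison, threshold 0.05, two-sided), and was tested on simulated data. Gene names came from the platform annotation. Members and lists were chosen with earlier results of these data known. Named from the lists were genes whose brightest probe set passed in a comparison, with Kdr, Flt1 and Vegfa, and the 3 genes most like each member called at 100 nM. The alternatives were other filters, normalization, weights, blocks, covariates and each array left out. The endothelial covariate and the Nrp2 to Nrp1 balance were added after seeing the data. Same-numbered replicates deviated together with correlations of 0.00676 to 0.199 at 100 nM and -0.04 to 0.13 at 10 nM, so the numbers were not taken as pairs.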

Additional observations from a re-analysis of the deposited data

Results flagged for a closer look

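In the 24 groups of 6 arrays tested for a lone extreme value, 5 values stood apart from the rest of their group, and chance alone marks about 5% of such groups. Control replicate 6 stood apart 3 times, with the highest Sema3f 1377892_at value of the controls (4.00), the lowest Nrp1 1370570_at value (9.85) and the lowest Nrp2 value (9.71). Array 5 at 100 nM stood apart in both Nrp1 probe sets, with 10.29 by 1370570_at and 10.44 by 1373577_at, each the lowest of its group. Control replicate 6 was the lowest control in 7 of the 12 probe sets, and replicate 2 was the highest of the 3 arrays at 10 nM in 10 of 12. Both set-aside arrays at 10 nM lay below all 6 controls in 7 of the 12 probe sets and above all of them in 0. The 7 include Sema3c, Sema6d, Nrp1 1373577_at and Plxna1, which did not pass at 10 nM. The share over all tested probe sets was not computed. The summed mesenchymal markers were low in these 2 arrays too, at 16.71 to 16.84, against 17.24 to 17.40 in control cultures.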

How the results depend on the processing

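Over 36 member results and 981 alternative values, no called difference changed sign, 937 values kept their side of the threshold, 31 lost a call and 13 gained one. The 5 calls at 100 nM against control came to 2 within replicates 1, 2 and 6, 2 within replicates 3, 4 and 5, 1 with the erythroid mean and 2 with the endothelial mean as a covariate, and stayed at 5 with each array left out. The 4 calls at 10 nM came to 1 within replicates 1, 2 and 6 and to 2 with the endothelial mean, with 3 to 6 when an array was left out. The 1 call between the doses came to 0 without the filter, 0 with only the 2 groups compared, 0 within replicates 1, 2 and 6, 2 with array weights and 2 with the endothelial mean, with 0 to 2 when an array was left out; 2 occurred without 100 nM replicate 5, where Sema3d passed too. The replicate number as a block left the counts at 5, 4 and 1, but the single call between the doses passed to Sema3d (1.35, limma adjusted p = 0.0363) and away from Sema3a (1.73, limma adjusted p = 0.0508). With the erythroid mean the count between the doses stayed at 1, but Sema3a was lost and Sema3d gained. Sema3f 1377892_at passed at 10 nM as well with quantile normalization (limma adjusted p = 0.024), array weights (0.0128) or only the 2 groups compared (0.0489), and when control replicate 6, or replicate 1 or 3 at 100 nM, was left out. Fits within sets have 3 arrays a group, but only 2 at 10 nM (replicates 1 and 2), and fewer arrays to estimate the spread. The cause of the other shifts was not tested.

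Over all tested probe sets, calls at 100 nM went to 1008 with all 17 arrays, 200 within replicates 1, 2 and 6, 644 with the erythroid and 1001 with the endothelial mean, against 2065. Those at 10 nM went to 4208 with array weights, 559 within replicates 1, 2 and 6 and 1020 to 2495 with an array left out, against 2004. Those between the doses went to 22 without the filter, 1199 with weights, 3 with only 2 groups, 429 with the block, 531 with the replicate division as a term, 134 within replicates 1, 2 and 6, 152 and 148 with the covariates and 3 to 619 with an array left out, against 271. Signals near the floor limit Sema3a at 10 nM.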
